A study of Mus musculus with 29 samples.

Results

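The slow muscle fibre contractile genes are 10 genes whose products build and drive the contractile machinery of slow-twitch (type I) fibres. They were taken by symbol from the deposited count table, and all 10 of the 10 listed symbols were found among its 24770 gene rows. The members are Myh7, Myl2, Myl3, Tnnc1, Tnni1, Tnnt1, Tpm3, Atp2a2, Myoz2 and Casq2.

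The study profiled brown adipose tissue (BAT) and gastrocnemius muscle (SkM) of young adult male wild-type C57BL/6J mice by bulk RNA-seq, to ask how calorie restriction (CR), treadmill running exercise training (EX) and both together (CREX, written CE in the sample titles) change each tissue. SkM was represented by 14 libraries (4 control, 3 CR, 4 EX and 3 CREX) and BAT by 15 libraries (3 control, 4 CR, 4 EX and 4 CREX). Control mice stayed sedentary on a chow diet, CR mice received a reduced ration, EX mice ran on a treadmill while fed freely, and CREX mice did both. All mice were fasted before tissue collection, so the control libraries also come from fasted animals.

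Skeletal muscle holds slow and fast fibres, and most contractile proteins exist in a slow and a fast version from separate genes. Slow fibres contract slowly but resist fatigue, and the mouse gastrocnemius is mainly a fast muscle with a smaller slow part. Several of the slow genes (Myl2, Myl3, Tnnc1, Atp2a2 and Casq2) are also the versions used by the heart. Bulk RNA gives 1 value for the whole piece of tissue, so fewer slow fibres and less slow RNA per fibre cannot be told apart. The paper does not say which part of the gastrocnemius was taken, so a difference in the piece sampled cannot be told apart either.

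Each member has a set role. Myh7 encodes the slow myosin heavy chain, the motor itself, and Myl2 and Myl3 encode its regulatory and essential light chains. Tnnc1, Tnni1 and Tnnt1 encode the calcium-binding, inhibitory and tropomyosin-binding subunits of slow troponin, and Tpm3 encodes slow tropomyosin, although other transcripts of Tpm3 are used in many cell types. Atp2a2 encodes SERCA2, the calcium pump of slow fibres, heart and, in another form, most other cells. Myoz2 encodes calsarcin-1, a Z-disc protein that binds calcineurin, and Casq2 encodes the cardiac and slow form of calsequestrin, the calcium-storing protein of the sarcoplasmic reticulum. In the GENCODE annotation of GRCm38, Myh7 lies at chr14:54970684-54994626, Myl2 at chr5:122100951-122113472, Atp2a2 at chr5:122453513-122502225 and Casq2 at chr3:102086415-102146514. The 4 values are whole gene bodies with exons, introns and UTRs.

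The promoters are shown because the members vary together between muscle libraries, but not all to the same degree. A RefSeq promoter window (GRCm38.p6, 250 bases before to 50 bases after the gene start) was matched by symbol for 9 of the 10 members, all but Atp2a2. The 5 members with a single window are printed from 150 bases before the start to the base before it, 5′ to 3′ on the gene's own strand. Capitals mark an E-box (CANNTG), a MEF2 box (CTA and TAG with 4 bases between them), an MCAT element (CATTCC) or a TATA box (TATAAA), found on either strand. Tnnc1 (chr14:31208162-31208311, plus strand) and Tnnt1 (chr7:4515976-4516125, minus strand) come from the members that were lowest in the CREX and EX libraries described below, Myl3 (chr9:110763528-110763677, plus strand) lies between, and Myoz2 (chr3:123034988-123035137, minus strand) and Casq2 (chr3:102086265-102086414, plus strand) kept more of their level there.
Tnnc1: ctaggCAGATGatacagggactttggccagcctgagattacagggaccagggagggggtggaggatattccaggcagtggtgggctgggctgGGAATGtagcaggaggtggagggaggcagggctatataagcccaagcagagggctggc
Tnnt1: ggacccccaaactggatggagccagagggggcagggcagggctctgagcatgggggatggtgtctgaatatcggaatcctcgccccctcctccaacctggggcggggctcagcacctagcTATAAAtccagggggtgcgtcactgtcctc
Myl3: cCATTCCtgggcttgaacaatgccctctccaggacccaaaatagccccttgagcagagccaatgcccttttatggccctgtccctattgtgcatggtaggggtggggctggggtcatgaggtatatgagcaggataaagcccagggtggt
Myoz2: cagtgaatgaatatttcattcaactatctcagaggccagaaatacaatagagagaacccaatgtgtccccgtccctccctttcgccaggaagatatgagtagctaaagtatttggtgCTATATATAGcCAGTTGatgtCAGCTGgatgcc
Casq2: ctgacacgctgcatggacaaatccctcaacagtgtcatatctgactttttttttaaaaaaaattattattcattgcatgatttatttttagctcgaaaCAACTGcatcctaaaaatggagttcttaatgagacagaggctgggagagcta
An E-box, the site of the MyoD family of factors, stood in the whole window of 9 of 9 members and in 72.3% of all 32851 promoter windows. The MEF2 box as spelled above stood in 1 of 9 members (Myoz2) against 3.69% of all windows. The TATA box stood in 2 of 9 against 13.6%, and the MCAT element, the site of TEAD factors, in 3 of 9 against 14.7%. The short core GGAAA of NFAT sites stood in 8 of 9 members and 61.3% of all windows, and the AAGGTCA half-site of the estrogen-related receptors in 1 of 9 and 4.72%. Only the spellings given were searched, so a window without a match may hold another form of the site. A member counted when any of its windows matched, whereas the percents are per window. Of the 13 member windows, 13 held an E-box, 1 a MEF2 box and 2 a TATA box. An MCAT element stood in 3 of them, the NFAT core in 11 and the AAGGTCA half-site in 1. These letter matches describe the windows only.

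Totals per library were nearly even in SkM (23050918 to 23425284 counts) and ranged from 21047242 to 24919377 counts in BAT. All levels below are CPM (the count scaled to the library total) adjusted by TMM factors within a tissue, and 3 counts correspond to 0.114 to 0.141 CPM in SkM and 0.119 to 0.143 CPM in BAT. Myh7 and its fast counterpart Myh4 had fractional counts in 19 and 20 of 29 libraries, the mark of reads shared with a near-identical gene, whereas the other 9 members had none. The cardiac heavy chain Myh6, the closest relative of Myh7, stayed between 0 and 3.83 CPM in SkM.

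In control gastrocnemius all 10 members were well measured. Compared per kilobase of exon, Myl3 was highest (median 150.0 CPM per kb, range 132.6 to 166.9, n = 4), followed by Myl2 (121.6) and Tnnc1 (115.9). Casq2 was lowest, at 9.03 CPM per kb (8.89 to 9.27), and its control libraries did not overlap those of Tnni1, the next member up (25.7, 13.3 to 29.2). Of the other neighbours in this order, only Myoz2 and Tpm3 were separated without overlap. The light chains thus stood above the heavy chain per kilobase, with Myh7 at 64.0 CPM per kb (21.1 to 91.9).

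Set against the fast genes, the slow share was small. Myh7 made up 0.981%, 2.21%, 1.60% and 2.60% of the summed Myh7 and Myh4 counts in control libraries 1 to 4. Over all 10 pairs of a slow member and its fast partner, the slow share in control libraries was 1.48%, 2.42%, 1.85% and 2.60%. The control libraries therefore differed among themselves before any treatment, and control library 1 held the least Myh7, at 181 CPM against 486 to 792 in the other 3. In that library 6 members (Myh7, Tnnc1, Tnni1, Tnnt1, Tpm3 and Atp2a2) stood at 32.9% to 62.9% of the control median, while Myl2, Myl3, Myoz2 and Casq2 stood at 98.2% to 139.7%.

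CREX libraries 2 and 3 and EX library 1 were the lowest for most of these genes and are given first, because they enter most of the comparisons. CREX 1 and EX 4 were low as well, each below every control library for 9 of the 10 members. Myh7 stood at 19.6% and 30.0% of the control median in CREX 1 and EX 4. In CREX libraries 2 and 3, all 10 members were lower than in any of the other 12 SkM libraries. Myh7 was 6.30 CPM (152 counts) in CREX 2 and 0.121 CPM (3 counts) in CREX 3, and Tnni1 was 1.49 and 0.606 CPM. The low levels were uneven between members. As a percent of the control median, Myh7 stood at 1.14% and 0.022% in the 2 libraries, Tnnc1 at 1.55% and 0.402%, Tnnt1 at 4.92% and 0.873%, Myoz2 at 14.9% and 16.3%, and Casq2 at 27.6% and 50.2%.

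The fast fibre list of 15 genes was not low in these libraries. Its summed level was 192831 CPM in CREX 2 and 168644 CPM in CREX 3, against 111742 to 185339 CPM in the other 12. Within that list the more oxidative heavy chains were low in the same libraries. Myh2, the type IIa chain, was 259 and 211 CPM against 1082 to 3677 in the others, and Myh1, the type IIx chain, was 420 and 826 CPM against 1524 to 5622. Myh4, the type IIb chain, was 49426 and 38520 CPM, the highest levels of all 14 libraries. Myoglobin (Mb), the oxygen store of oxidative fibres, was 640 and 1000 CPM against 2607 to 6266. The 6 endothelial markers also had their lowest sums there, at 123 and 110 CPM against 151 to 307, and their part in the member values was not tested.

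EX library 1 showed another pattern. It was low in Myh7 (14.4 CPM, 2.62% of the control median), Tnnc1 (3.76%), Tnni1 (4.56%) and Tnnt1 (8.46%), and less so in Tpm3 (13.8%), Atp2a2 (14.4%) and Myl2 (29.6%, against 58.7% to 103.8% in the other EX libraries). Myl3 (69.9%), Myoz2 (70.9%) and Casq2 (125%) stood near the other EX libraries. Myh2 was 3633 CPM in this library, within the range of the controls (2066 to 3677), so the type IIa chain was not low there. For Myh7, EX 1 was below control, CR and the other 3 EX libraries, and above CREX 2 and 3 only.

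**Figure D1:**
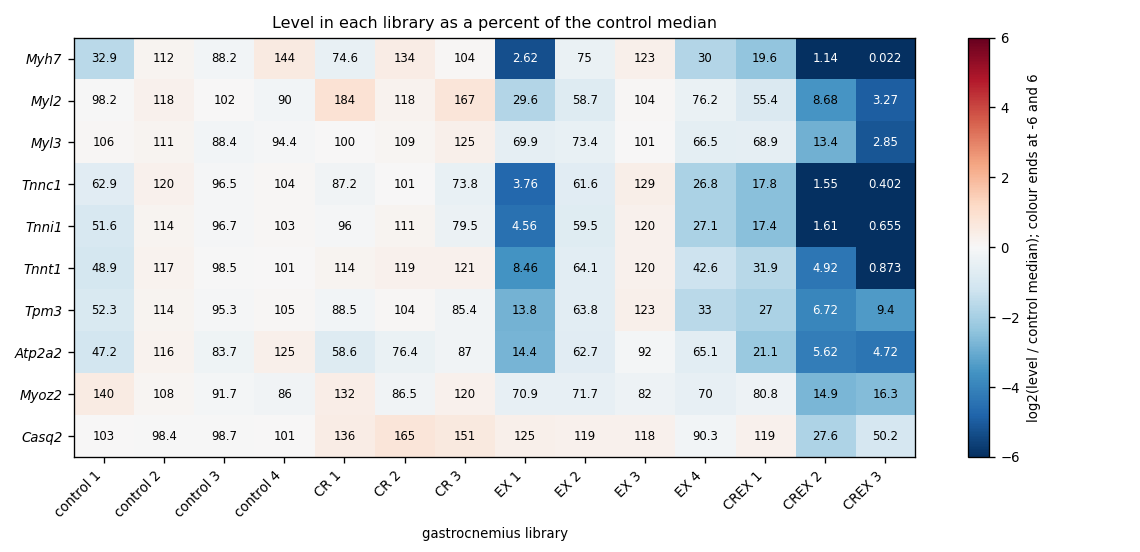
Level of each slow member (rows) in each gastrocnemius library (columns) as a percent of the median of the 4 control libraries, printed in each cell and coloured on a log2 scale. CREX 2 and 3 are low for every member, from 0.022% for Myh7 to 50.2% for Casq2, while EX 1 is low for Myh7 (2.62%) but not for Myl3 (69.9%) or Casq2 (125%).

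The members differed in how closely they followed Myh7. Across the 13 SkM libraries with at least 100 counts of Myh7, Tnnc1 stood at 15.5% to 41.8% and Tnni1 at 12.1% to 29.3% of the Myh7 level, although each gene itself varied by a far larger factor. Tnnt1 (19.0% to 116%), Tpm3 (28.5% to 230%) and Atp2a2 (37.0% to 358%) followed it less closely. The ratios of Myl2 (27.0% to 486%), Myl3 (36.5% to 1486%), Myoz2 (20.2% to 912%) and Casq2 (3.16% to 215%) ranged furthest, with their highest values in EX 1. In CREX 2 these 4 were themselves low, at 8.68%, 13.4%, 14.9% and 27.6% of the control median. These are ratios of CPM, not per length, and are given as a description with no test. CREX 3, left out by the limit of 100 counts, had 0.121 CPM of Myh7, 0.485 of Tnnc1 and 0.606 of Tnni1. Both thus lay above Myh7 in that library, at few counts.

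CR against control in sedentary mice asks what restriction alone does. Most slow genes did not pass the test, and the motor and troponin genes stayed near their control levels. Myh7 was 411, 740 and 574 CPM in CR and 181, 616, 486 and 792 CPM in control, so the groups overlapped (575 ± 164, n = 3, against 519 ± 257, n = 4, mean ± SD). Tnnc1 (89.0 to 122 CPM), Tnni1 (73.6 to 103) and Tpm3 (184 to 223) in CR lay within the control range for every library. A gene counted as called when edgeR's quasi-likelihood test gave an adjusted p (Benjamini-Hochberg) under 0.05 with more than a 1.5-fold difference.

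Casq2 and Myl2 rose. Casq2 was 33.6, 40.9 and 37.2 CPM in CR and 25.4, 24.3, 24.4 and 25.03 CPM in control, without overlap. Its log2 fold change was 0.60 (SE 0.098, adjusted p = 0.00362). Myl2 was 435, 279 and 396 CPM in CR and 233, 279, 241 and 213 CPM in control, so the lowest CR library sat at the highest control library. Its log2 fold change was 0.62 (SE 0.16, adjusted p = 0.0284).

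These 2 of 10 members are to be read against 9.60% of all 13173 genes tested that were called in this comparison, 4.27% called higher, and 29.3% with an unadjusted p under 0.05. Casq2 was the 1 member whose libraries did not overlap, while 13.1% of all genes were higher and 14.5% lower without overlap. Both fold changes lie just above 1.5, and both calls were lost in 1 fit over all 4 SkM groups (adjusted p = 0.256 for Casq2 and 0.615 for Myl2). Leaving out CR library 2 or control library 2 took Casq2 under the fold (log2 0.52 and 0.58), and the Myl2 call held only without CR library 2 or control library 2, with log2 values from 0.49 to 0.79 over the 7 fits without 1 library. The other 8 members had log2 values from -0.32 (Atp2a2, SE 0.29) to 0.38 (Tnnt1, SE 0.24), with adjusted p from 0.321 to 0.959.

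Some fast genes and regulators of fibre type were also called in this comparison. Of the fast list, 3 of 15 were called higher and 0 lower, among them Actn3, the fast alpha-actinin (log2 1.30, SE 0.17, adjusted p = 0.00115), and Mylpf, the fast partner of Myl2 (log2 0.95, SE 0.24, adjusted p = 0.0284). Myl2 as a share of Myl2 and Mylpf counts was 3.46% to 5.57% in CR and 3.88% to 6.29% in control, so the shares overlapped. Of 11 other genes enriched in slow or oxidative fibres, 1 was called higher and 2 lower. Sarcolipin (Sln), a SERCA inhibitor, rose by 2.02 on the log2 scale (SE 0.27, adjusted p = 0.0013), and Fabp3, a fatty acid carrier, fell by 1.35 (SE 0.25, adjusted p = 0.00678), as did Mb, which fell by 0.78 (SE 0.16, adjusted p = 0.0119).

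Among 30 regulators of the slow programme, 1 was called higher and 6 lower in CR. Foxo1, a transcription factor active in fasting, rose by 2.38 (SE 0.12, adjusted p = 9.52e-06), Six4, a homeobox factor of muscle genes, fell by 1.003 (SE 0.13, adjusted p = 0.0013), and Ppargc1b, a coactivator of mitochondrial genes, fell by 1.26 (SE 0.18, adjusted p = 0.00177). The median of the 30 was -0.15, beside 0.005 over all genes tested. Among the markers of other cells, 3 of 6 endothelial genes were called lower and 5 of 5 tested hepatocyte genes higher, with summed hepatocyte levels of 36.2 to 200 CPM in CR and 0.463 to 5.54 CPM in control. Their part in the member values was not tested.

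**Figure D2:**
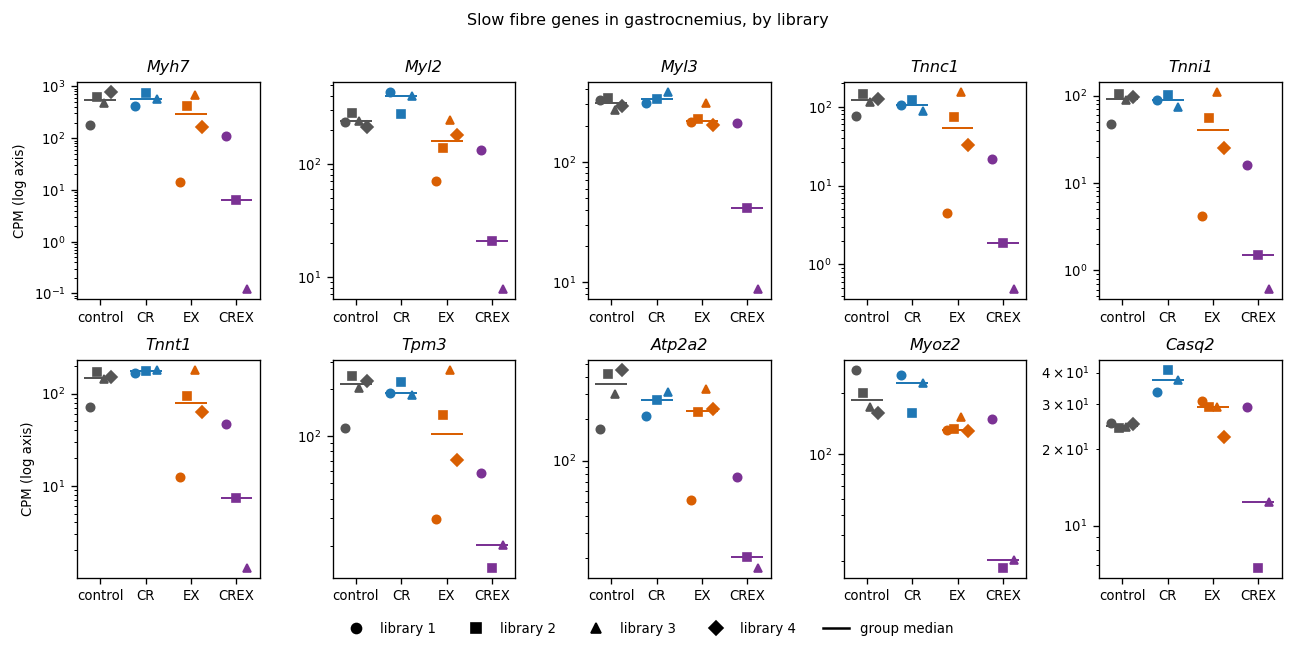
CPM of the 10 members in every gastrocnemius library, on a log axis, by group, with a symbol for each library number and a bar at the group median. CR libraries lie with the controls for most members, Casq2 in CR (33.6 to 40.9 CPM) lies above control (24.3 to 25.4 CPM), and CREX 2 and 3 lie below all others.

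EX against control in freely fed mice asks what training alone does. No member passed the test in edgeR or in DESeq2, 2 of 10 (Myl3 and Myoz2) had an unadjusted p under 0.05 beside 6.85% of all genes, and 0.0775% of 12907 genes were called. Of the members, 9 had lower and 1 (Casq2, log2 0.18, SE 0.10) had higher fitted levels. Myh7 was 14.4, 413, 677 and 166 CPM in EX, so 2 EX libraries lay within the control range (181 to 792) and 2 below it.

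Myoz2 was the 1 member whose libraries did not overlap, beside 2.38% of all genes that were lower and 1.84% that were higher without overlap. It was 131, 133, 152 and 130 CPM in EX and 259, 201, 170 and 159 CPM in control, with a log2 fold change of -0.53 (SE 0.14, adjusted p = 0.234 with edgeR). Its fold, 1.44 lower, is below the fold threshold. Myl3 was 214, 225, 308 and 204 CPM in EX and 324, 341, 271 and 289 CPM in control (log2 -0.36, SE 0.13, adjusted p = 0.55). The remaining 7 members with lower fitted levels had log2 values from -0.60 to -0.78 with SE from 0.33 to 1.03. For Tnnc1, leaving out EX 1 moved the log2 value from -0.78 to -0.39.

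CREX against EX asks what restriction does in trained mice. All 10 members had lower fitted levels in CREX, with log2 values from -3.06 (Tnnc1, SE 1.67) to -0.79 (Casq2, SE 0.47), yet no member was called with edgeR (adjusted p from 0.11 to 0.373), while 8.87% of 13112 genes were. At an unadjusted p under 0.05 stood 1 of 10, Atp2a2 (log2 -2.47, SE 0.86), beside 32.3% of all genes, and it was also the 1 member called with DESeq2. Atp2a2 was 75.7, 20.2 and 16.9 CPM in CREX and 51.6, 225, 330 and 234 CPM in EX, and EX 1 lay below CREX 1. For all 10 members the libraries of the groups overlapped, while 13.1% of all genes were higher and 14.6% lower without overlap.

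The size of these differences rests on the lowest libraries. Without CREX 2 and 3 the log2 values ran from -1.62 to 0.15, with a median of -0.98 in place of -2.12, no member was called, and Myoz2 and Casq2 changed sign. Leaving out EX 1 as well gave values from -2.01 to 0.14, a median of -1.32 and 1 call. Without CREX 1 instead, which leaves CREX 2 and 3 as the whole group, 4 of 10 members were called (Myl2, Myl3, Myoz2 and Casq2). In fits with 1 CREX library, that library is taken to vary as the others do.

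Other genes of the slow programme did pass in this comparison. Sln rose by 2.74 on the log2 scale and Fabp3 fell by 1.74, as 1 higher and 1 lower call among the 11 other slow or oxidative genes. Of the regulators, 1 was called higher (Foxo1, log2 2.51) and 4 lower, among them Ppargc1b, which fell by 1.94, and Nfatc2, a calcineurin-driven factor, which fell by 0.89. Of the fast list, Actn3 alone was called (log2 1.501). Markers of other cells moved as well. Of 6 tendon markers 5 were called lower and 1 higher (median log2 -2.35), with summed levels of 21.8 to 36.5 CPM in CREX and 53.4 to 86.4 CPM in EX, and 2 of 6 endothelial markers were called lower (sums of 110 to 213 and 239 to 297 CPM). Their part in the member values was not tested.

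CREX against CR asks what training adds to restriction. All 10 members were lower in every CREX library than in every CR library, and 3.59% of 13068 genes were lower and 4.18% higher without overlap. Myh7 was 108, 6.30 and 0.121 CPM in CREX against 411 to 740 CPM in CR, and Tnni1 was 16.1, 1.49 and 0.606 CPM against 73.6 to 103 CPM. The groups were only just apart for Myoz2, with 149.7, 27.7 and 30.2 CPM in CREX against 160 to 245 CPM in CR, and for Casq2, with 29.3, 6.83 and 12.4 CPM against 33.6 to 40.9 CPM.

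No member was called in edgeR, in which 0 of 13068 genes (0%) passed (adjusted p = 0.999 for each member), while 6 of 10 members had an unadjusted p under 0.05 beside 3.65% of all genes, and DESeq2 called 2 (Tpm3 and Atp2a2). The log2 values ran from -3.89 (Myh7, SE 1.81) to -1.20 (Casq2, SE 0.51), with the smallest SE for Tpm3 (log2 -2.68, SE 0.55). CREX 1 alone, the CREX library nearest to the others, was also lower than CR for every member, and without CREX 2 and 3 the log2 values were -2.45 to -0.34, with no member called. Without CREX 1, 8 of 10 members were called.

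**Figure D3:**
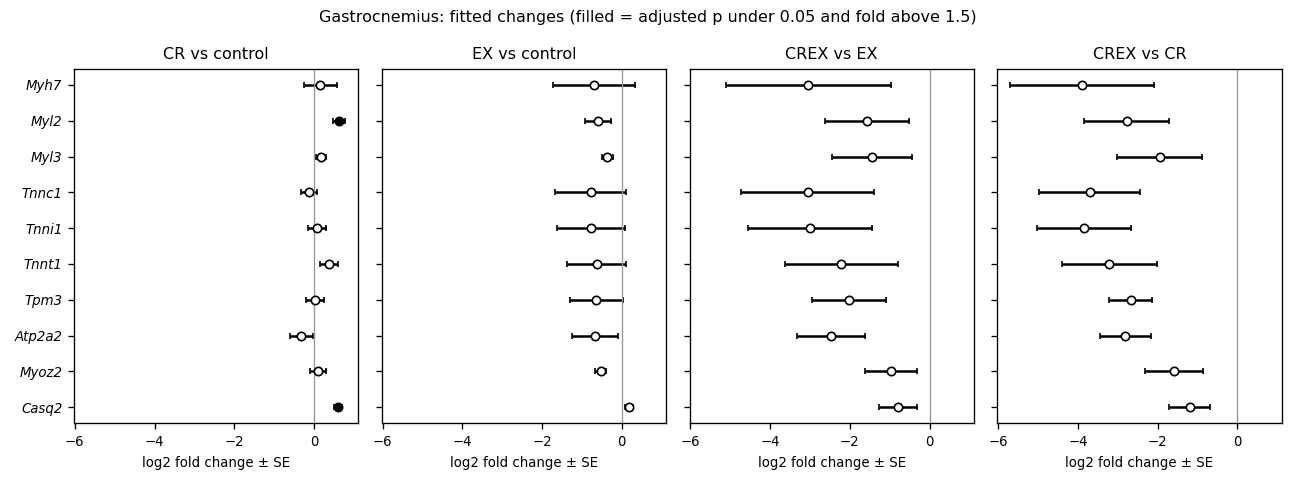
Fitted log2 fold changes (points) with their standard errors (bars) for the 10 members in 4 gastrocnemius comparisons, filled where called. Only Myl2 and Casq2 in CR against control are filled, and in CREX against EX and CREX against CR all 10 points lie below 0 with bars of up to 2.07.

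The design also allows each treatment to be averaged over the other. For CR averaged over training, 1 of 10 members was called beside 14.1% of 13610 genes, and the same member alone had an unadjusted p under 0.05 beside 44.9%. Atp2a2 fell by 1.41 on the log2 scale (SE 0.45, adjusted p = 0.0323). That call was lost without the low-count filter (adjusted p = 0.0738), without CREX 2 and 3 (log2 -0.91, adjusted p = 0.258) and in 10 of the 14 fits that left out 1 library. For EX averaged over diet, 10 of 10 members had lower fitted levels and an unadjusted p under 0.05, beside 6.77% of all genes, with log2 values from -2.33 to -0.51. None was called with edgeR (adjusted p from 0.387 to 0.723), DESeq2 called 1 (Atp2a2), and 0.0294% of all genes were called. Without CREX 2 and 3 the log2 values were -1.62 to -0.085, with a smallest adjusted p of 0.886.

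The interaction of CR and EX had negative values for all 10 members (log2 -3.21 to -1.07), 3 of them at an unadjusted p under 0.05 beside 4.91% of 13610 genes. None was called with edgeR (adjusted p = 0.941) or DESeq2, and 0% of all genes passed. Without CREX 2 and 3 the values ran from -1.70 to 0.05. Without CREX 1, which leaves only CREX 2 and 3 in the group, 4 were called in the interaction, 9 for the CR average and 8 for the EX average.

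The slow share of the 10 slow and fast pairs, which does not depend on scaling between libraries, was 1.39%, 1.92% and 1.99% in CR, 0.562%, 1.48%, 2.19% and 0.916% in EX, and 0.732%, 0.0907% and 0.0706% in CREX. CREX 2 and 3 lay below every other library, and CREX 1 lay above EX 1. Casq2 as a share of Casq2 and Casq1 was 1.64% to 1.88% in CR and 1.15% to 1.52% in control, without overlap.

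Genes outside the list that followed the mean of the 10 members most closely over the 14 SkM libraries were, by Pearson's r of log2 CPM, Gm31251 (0.94), Ablim1 (0.94), Mier1 (0.92), Cyfip2 (0.92), Nnt (0.91), Plcd1 (0.90), Acsf2 (0.90), Idh2 (0.90), Aldh7a1 (0.89) and Pln (0.89). Pln encodes phospholamban, the regulator of SERCA2, and Idh2 encodes a mitochondrial enzyme that makes NADPH. The 14 libraries share the group differences and the low libraries, so the order is a description. Cyfip2 was the 1 gene of these 10 that remained when group means were removed first.

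In BAT both slow and fast muscle genes were detected, at levels that differed widely between libraries. The tissue label held: Ucp1, the uncoupling protein of brown adipocytes, was 1366 to 4740 CPM in BAT and at most 0.139 CPM in SkM. The fast list sum differed between BAT libraries from 81.4 to 5643 CPM. Of this list, Myl1 and Tpm1 had at least 31.8 and 32.6 CPM in every BAT library, whereas Myh4 fell to 0.174 CPM. The lowest sums therefore rested mainly on Myl1 and Tpm1. Of 7 heart markers in the table, 5 were low in all 15 libraries, with at most 2 counts of Nppa, 3 of Tnni3, 1 of Mybpc3, 9 of Myh6 and 20 of Ryr2, and the other two, Tnnt2 and Actc1, are given below for EX 3.

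Slow RNA in BAT ran from none to a level that overlapped gastrocnemius. Myh7 was 4.20, 0.361 and 0 CPM in control and 0.0865, 0, 49.0 and 8.08 CPM in CR. It was 9.81, 0.829, 182 and 0 CPM in EX and 16.9, 64.2, 379 and 21.1 CPM in CREX. For Myh7 all 4 CREX libraries lay above the 3 control libraries, and CREX overlapped CR and EX. Of the members only Tpm3, Atp2a2 and Casq2 overlapped between CREX and control. The fast list sum was also higher in every CREX library (1007 to 5643 CPM) than in control (81.4 to 732 CPM). CREX against control was not fitted, and the share of all genes without overlap was not counted. These separations therefore cannot be read as particular to the members. CREX 3 was highest for 9 of the 10 members and EX 3 for Casq2. In 6 of 15 libraries Myh7 had 20 counts or fewer, and there Tnni1 had at most 5 and Tnnt1 at most 10 counts.

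**Figure D4:**
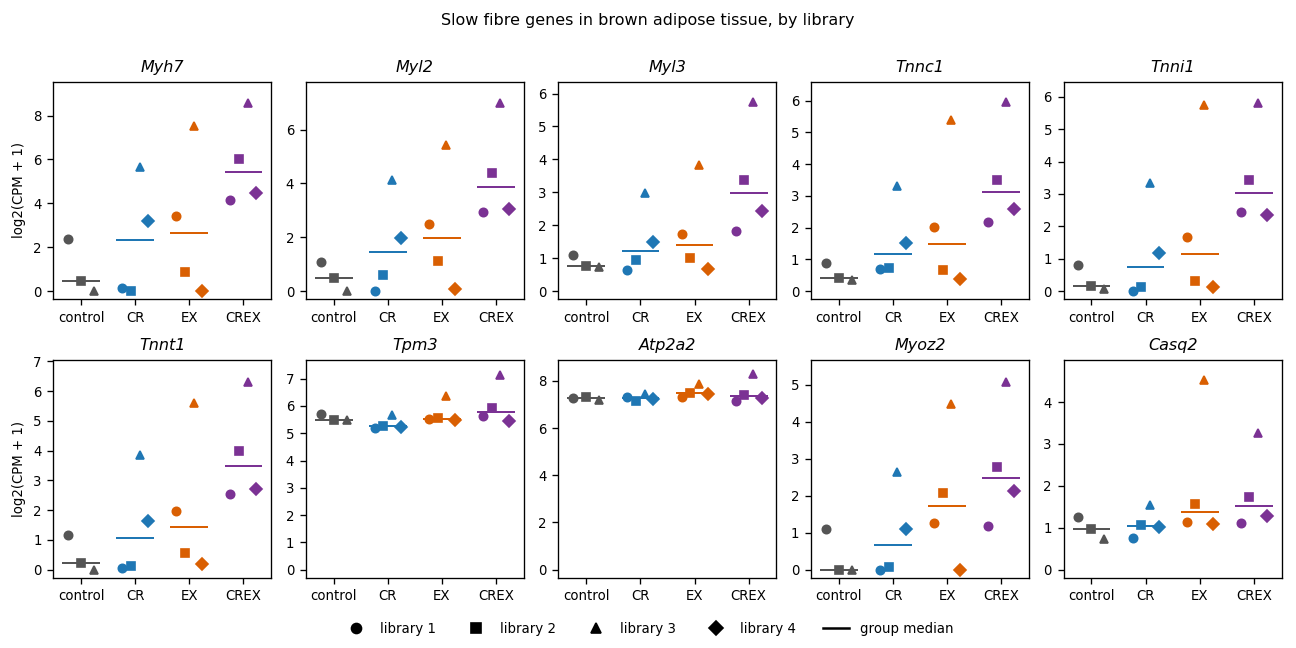
Levels of the 10 members in every BAT library as log2(CPM + 1), by group, with a bar at the group median. Tpm3 and Atp2a2 have a level in every library (at least 35.1 and 139 CPM), whereas the other 8 range from near 0 up to the highest values in EX 3 and CREX 3.

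Tpm3 and Atp2a2, both known to be used outside muscle too, were well above 0 in every BAT library. In the 6 libraries with almost no Myh7, Tpm3 was still 35.1 to 46.0 CPM and Atp2a2 139 to 180 CPM, which is 20.3% and 43.9% of their control gastrocnemius medians (medians of 43.8 and 157 CPM). In the same libraries Myh7 stood at 0.00785% and Tnni1 at 0.0984% of gastrocnemius. Casq2 had 0.657 to 1.98 CPM there, 4.17% of its gastrocnemius level, and Myl3 0.562 to 1.01 CPM. These libraries included EX 2, which was not poor in fast muscle RNA (Myh4 at 748 CPM, fast list sum of 3747 CPM). EX 2 gave the upper end of the ranges of Tpm3, Atp2a2, Casq2 and Myl3.

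The balance of slow and fast genes in BAT differed from that in gastrocnemius in many libraries. Of the 13 BAT libraries with at least 100 Myh4 counts, 10 had a higher Myh7 share of the Myh7 and Myh4 pair than any SkM library (maximum 2.60%), with a median of 4.75% and a highest value of 26.8% in EX 3. For Tnni1 and Tnni2 the same held in 9 of 10 libraries (median 7.88%, SkM maximum 2.36%), and for Tnnc1 and Tnnc2 in 9 of 10 (6.20% against 2.13%). The count was 5 of 11 libraries for Myl2, 4 of 10 for Myoz2 and 3 of 15 for Myl3. Myl1, the fast partner of Myl3, had 1005 to 1131 counts even in EX 4, control 3 and control 2, where Mylpf had 17 to 68. No test was made between tissues, which differ in dissection and in the muscles nearby.

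The amount of fast RNA did not fix the amount of slow RNA. EX 2 had 748 CPM of Myh4 but 0.829 CPM of Myh7, a share of 0.111%, while EX 3 had less Myh4 (499 CPM) and 182 CPM of Myh7. CREX 3 combined the most Myh4 (1267 CPM) with a share of 23.0%. EX 3 also held Tnnt2 (15.9 CPM against at most 0.184 in the other 14), Actc1 (41.4 against at most 2.49) and a summed level of 6 tendon markers of 68.9 CPM against 0.858 to 3.14, of which Thbs4 alone made up 60.8 CPM. Tnnt2 and Actc1 are also made by immature and regenerating skeletal fibres, and the part of these in the EX 3 values was not tested.

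Where Myh7 had at least 100 counts (8 BAT libraries), Tnnc1 stood at 15.9% to 31.1% and Tnni1 at 14.5% to 28.8% of the Myh7 level, close to their SkM ranges. Myl3 stood lower, at 7.21% to 23.6% against 36.5% to 1486% in SkM, and Myoz2 at 7.53% to 16.01% against 20.2% to 912%, with no overlap of the tissues for either. Myl2 stood at 23.1% to 47.6%.

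**Figure D5:**
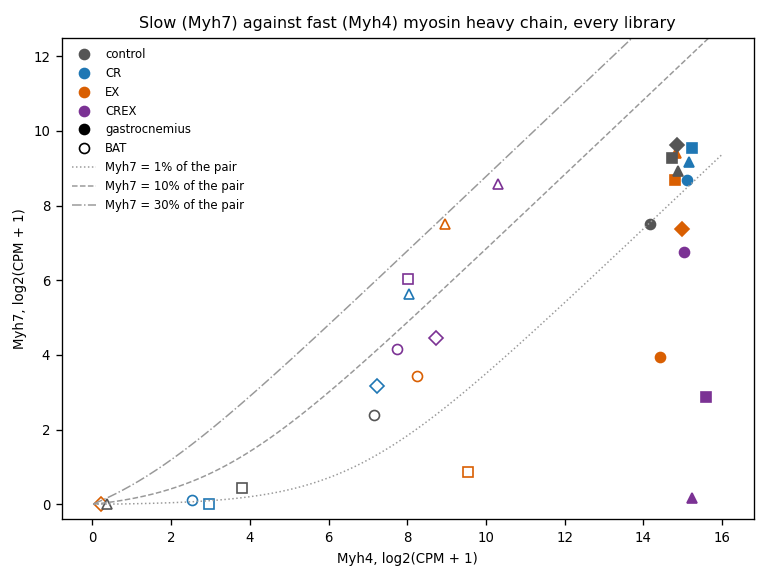
Myh7 against Myh4 in each of the 29 libraries, both as log2(CPM + 1), with filled symbols for gastrocnemius, open symbols for BAT, colours for the groups and grey lines where Myh7 is 1%, 10% and 30% of the pair. Most BAT libraries with muscle RNA lie above the 1% line, up to 26.8%, and the 3 CREX libraries, EX 1, EX 4 and, just under it, control 1 (0.981%) of gastrocnemius lie below it.

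No member was called in any of the 4 pairwise BAT comparisons, with edgeR or DESeq2. For CR against control, 10.7% of all genes were called and 35.8% had an unadjusted p under 0.05, against 0 members. For CREX against EX, 4.48% were called and 25.6% had such a p, against 0 members. For EX against control, 0% were called and 7.26% had such a p, with 1 member (Atp2a2, log2 0.28, SE 0.12, adjusted p = 0.686 with edgeR). For CREX against CR, 0.00763% were called and 7.65% had such a p, against 0 members. The libraries of the groups overlapped for every member in these comparisons, while genes without overlap made up 16.6% higher and 17.0% lower for CR against control, 8.66% and 9.29% for CREX against EX, 3.58% and 4.65% for EX against control, and 2.16% and 2.91% for CREX against CR. All 10 members had higher fitted levels in EX than in control (median log2 4.34, 0.007 over all genes) and in CREX than in CR (median 2.72). Without EX 3 and CREX 3 these medians were 1.24 and 1.08, with 1 member of the 9 tested below 0 in EX against control (Tpm3) and 1 of 10 in CREX against CR. Of the fast list, 15 of 15 genes also had higher fitted levels in both (medians 3.11 and 2.09), with 0 called, and the part of the amount of muscle in the fat pad was not tested in these pairs.

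For EX averaged over diet in BAT, 8 of 10 members had an unadjusted p under 0.05, beside 11.0% of 13922 genes, with log2 values from 0.30 to 4.16 over the 10. None was called with edgeR (adjusted p from 0.333 to 0.537), DESeq2 called 1, and 0.00718% of all genes were called. With the fast list level of each library as a covariate, the values were -0.45 (Myoz2) to 0.97 (Tnnc1). Without EX 3 and CREX 3 the median was 1.23 in place of 3.53.

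For CR averaged over training in BAT no member was called with edgeR or DESeq2, 0 had an unadjusted p under 0.05 (43.8% of all genes did, and 11.8% were called), and the log2 values ran from -0.37 (Casq2) to 2.54 (Myl2). Without EX 3 alone, Myl3 and Tnnc1 were called (log2 2.68 and 3.30, adjusted p = 0.049 and 0.0389). The interaction gave no calls with either tool (0% of all genes passed) and no member with an unadjusted p under 0.05, beside 5.75% of all genes.

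The genes whose log2 CPM followed the member mean most closely over the 15 BAT libraries were Sln (r = 0.96), Ctxn3 (0.95), Lrrc30 (0.95), Casr (0.95), Itgb1bp2 (0.94), Xirp1 (0.93), Slco5a1 (0.93), Lmod2 (0.93), H19 (0.93) and Hspb7 (0.93). Several of these are muscle genes, such as Lmod2, a leiomodin of the thin filament, and Xirp1, a protein of cell junctions in striated muscle. The points share the amount of muscle RNA in each library. Of the 10, 6 remained when group means were removed first.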

How the data were processed

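RNA-seq libraries of BAT (n = 15) and gastrocnemius (n = 14) were grouped by the sample labels. The authors trimmed reads, aligned them to mm10 with STAR (2.7.10a per the labels) and deposited RSEM expected counts by symbol, without normalization. Which annotation they counted on is not given in the sources used here. Strand was not stated either, so antisense genes cannot be told apart.

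These values were rounded and tested with edgeR 4.0.16 (R 4.3.3) on the groups compared, with the filterByExpr filter, TMM factors, robust quasi-likelihood fits and Benjamini-Hochberg adjustment over all genes tested. A fold change above 1.5 was also required, except for the interaction. DESeq2 1.42.0 was an alternative. SE is the log2 fold change divided by the square root of F. Overlap of groups was read from CPM. The steps were tested on simulated data. Exon lengths came from GENCODE vM21.

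The members and lists were chosen with earlier results of these data known. The text names all 10 members, their fast partners, at most 3 genes of another list by smallest p, defining marker genes as levels, and the 10 genes most like the member mean. The labels do not say that replicates are separate mice, so p-values cover the spread between these samples.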

Additional observations from a re-analysis of the deposited data

Results flagged for a closer look

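Of 55 sets of 4 libraries tested (the 10 members and their mean in the 5 groups of 4), 3 had a library apart from the rest by Dixon's test on log2(CPM + 1), where the gap to the nearest library is divided by the range of the group and compared with 0.829. About 1 in 20 such sets is passed by chance. Tpm3 in BAT EX 3 was 82.1 CPM (ratio 0.909), and Casq2 in the same library was 22.0 CPM (ratio 0.859). Myoz2 in SkM EX 3 was 152 CPM (ratio 0.843), the highest of the EX group.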

How the results depend on the processing

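The results were rebuilt with DESeq2, RLE size factors, no low-count filter, 1 fit over all groups, no fold minimum and a replicate block. Each library was also left out in turn and, in BAT, a fast fibre covariate was added. Of 94 counts of called members outside the fits without 1 library, 83 were the same and 11 moved. The main count was 0 except for CR against control and the CR average, both in SkM, so most unchanged counts were 0 that stayed 0. No call in those results held in every setting. For CR against control in SkM (2 called) the count was 0 in 1 fit over all groups and 1 in every fit without 1 library. For CREX against EX (0 called) it was 1 with DESeq2, 1 in 1 fit over all groups and 1 without CREX 2, CREX 3 and EX 1, and 0 to 4 without 1 library. For CREX against CR (0) it was 2 with DESeq2 and 0 to 8 without 1 library, and for the interaction (0) 0 to 4. For the SkM CR average (1) it was 0 without the filter, 0 without CREX 2 and 3, and 0 to 9 without 1 library. For the SkM EX average (0) it was 1 with DESeq2 and 0 to 8 without 1 library. In BAT the EX average (0) gave 1 with DESeq2 and the CR average (0) gave 0 to 2 without 1 library. The highest SkM counts, 4 to 9, came without CREX 1. The cause of the other moves was not tested.

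Direction changed for a few members. In CREX against EX, Myoz2 became 0.15 and Casq2 0.090 without CREX 2 and 3, and 0.14 and 0.14 without EX 1 as well, settings chosen after seeing the data. Without CREX 2 and 3, 3 of 10 members turned positive in the SkM CR average (up to 0.32) and 1 in the interaction (0.047). Without EX 3 and CREX 3, 1 member turned negative in BAT EX against control (-0.055) and 1 in BAT CREX against CR (-0.011). In CR against control, fits without 1 library crossed 0 for Myh7 (-0.127 to 0.427), Tnni1 (-0.121 to 0.191), Tpm3 (-0.167 to 0.142) and Myoz2 (-0.0357 to 0.255).

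Replicate numbers in the labels were tried as a block, although they did not pair the libraries: correlations of same-numbered deviations ran from -0.739 to 0.538. The replicate block gave 1 called member for CR against control in SkM, with Myl2 lost (adjusted p = 0.0705) and Myoz2 at -0.0038, and 0 for the SkM CR average.

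Levels without TMM factors stayed within 1 SD except for 2 group means (Tnnt1 in CR and Casq2 in control, SkM). The likeness lists kept 1 of 10 genes in SkM and 6 of 10 in BAT when group means were removed. Depth limited only Myh7 in CREX 3 and the BAT libraries with few muscle reads.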
